A study of Saccharomyces cerevisiae BY4741 with 4 samples.

Results

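The nuclear pore complex of budding yeast was described through the transcripts of 32 genes, chosen by their systematic names as nucleoporins, pore membrane proteins, GLE1, GLE2, MLP1 and MLP2. All 32 had a row of their own among the 7382 features of the deposited count table. Poly(A) RNA and total RNA of wild-type BY4741, a laboratory strain of Saccharomyces cerevisiae with deletions in several nutrient synthesis genes, had been sequenced in 2 biological replicates each. The poly(A) fraction had been bound to oligo-dT beads and then depleted of residual rRNA, whereas the total RNA had not been selected. The cells of all 4 samples were wild type, grown in YPD rich medium at 30 °C and harvested in exponential growth at an OD600 of 0.6, so the comparison is between RNA fractions and not between treatments.

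Nuclear pores are channels through the nuclear envelope that carry every exchange of protein and RNA between nucleus and cytoplasm, and in budding yeast the envelope stays closed through mitosis. A symmetric scaffold of an outer and an inner ring is anchored by pore membrane proteins and holds nucleoporins rich in phenylalanine-glycine (FG) repeats, whose disordered chains fill the channel and bind the transport receptors. A basket of long coiled-coil proteins extends into the nucleus, and a platform on the cytoplasmic side takes part in the release of exported mRNA. The genes were placed in 6 groups by these roles: outer ring scaffold (6 genes), inner ring scaffold (7), FG-repeat proteins of the channel and the cytoplasmic face (7), basket (5), membrane proteins (4) and export platform (3).

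The coding sequences bore out the FG-repeat label. In-frame codon pairs for phenylalanine followed by glycine numbered 16 to 47 in the 7 FG-repeat genes. They numbered 17 in NUP1 and 12 in NUP2, basket genes whose proteins carry FG repeats, and 15 in NUP145, whose protein is cut into an FG-repeat part and a scaffold part. The other 22 genes held 0 to 6 such pairs, and NUP60 of the basket held 0. The repeats are shown for the 3 genes with the lowest fold changes of poly(A) over total RNA, NUP1, NUP49 and NSP1, for NUP57, whose protein sits in a subcomplex with Nup49 and Nsp1, and for the paralogs NUP100 and NUP116. Each stretch is the first run of 60 codons with the most pairs in that gene, 180 bases of the coding strand read 5′ to 3′ from RefSeq build R64, with the phenylalanine-glycine codon pairs in capitals. They lie at chrXV:509826-510005 on the minus strand (NUP1), chrVII:180787-180966 on the plus strand (NUP49), chrX:366007-366186 on the plus strand (NSP1), chrVII:729492-729671 on the minus strand (NUP57), chrXI:310199-310378 on the plus strand (NUP100) and chrXIII:366526-366705 on the minus strand (NUP116).
NUP1: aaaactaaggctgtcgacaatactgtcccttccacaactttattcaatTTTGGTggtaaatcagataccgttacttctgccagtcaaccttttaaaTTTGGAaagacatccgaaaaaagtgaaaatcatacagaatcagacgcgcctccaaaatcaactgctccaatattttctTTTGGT
NUP49: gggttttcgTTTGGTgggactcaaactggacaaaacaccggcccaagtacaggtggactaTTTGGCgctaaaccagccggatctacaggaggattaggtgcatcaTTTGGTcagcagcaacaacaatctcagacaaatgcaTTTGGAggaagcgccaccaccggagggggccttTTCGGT
NSP1: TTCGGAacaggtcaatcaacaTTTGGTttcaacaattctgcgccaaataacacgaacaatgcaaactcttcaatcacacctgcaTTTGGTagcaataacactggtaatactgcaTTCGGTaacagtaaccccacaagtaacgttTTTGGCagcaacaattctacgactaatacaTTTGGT
NUP57: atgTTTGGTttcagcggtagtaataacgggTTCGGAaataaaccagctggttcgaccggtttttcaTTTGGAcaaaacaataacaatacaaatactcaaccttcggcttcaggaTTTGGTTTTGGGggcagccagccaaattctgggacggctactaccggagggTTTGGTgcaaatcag
NUP100: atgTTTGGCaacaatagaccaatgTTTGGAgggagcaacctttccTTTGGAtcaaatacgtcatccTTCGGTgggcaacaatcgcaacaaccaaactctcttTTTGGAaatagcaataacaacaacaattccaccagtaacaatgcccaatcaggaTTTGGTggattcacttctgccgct
NUP116: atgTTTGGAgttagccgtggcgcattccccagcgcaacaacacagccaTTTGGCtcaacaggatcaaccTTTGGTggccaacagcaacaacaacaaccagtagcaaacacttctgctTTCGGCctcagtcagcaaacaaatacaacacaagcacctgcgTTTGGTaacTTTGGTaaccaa
The NUP1 stretch held 3 pairs, the NUP49 stretch 5 and each of the other stretches 6. Despite the repeats, no 50-base stretch of any of the 32 coding sequences, the length of a read, occurred in the genome outside its own gene. In NSP1, 158 of these stretches (6.52%) occurred again within the gene itself, and in NUP159 6 did. The members of 5 paralog pairs shared 0 stretches of 50 bases with each other.

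The table held 52851542 and 53180654 counts for the poly(A) replicates 1 and 2 and 53746838 and 75955489 for the total RNA replicates. Nuclear protein-coding features took 99.8% of the poly(A) counts in both replicates, but 3.14% and 3.15% of the total RNA counts, where features holding rRNA took 96.4% and 96.4%. The 32 genes had between 1570 and 15103 counts per poly(A) library and between 47 and 1259 per total RNA library. Across these genes the total RNA replicates agree within sampling noise (chi-square per degree of freedom 1.07, p = 0.357), while the poly(A) replicates differed beyond it (10.5 per degree of freedom). Over all nuclear coding features both replicate pairs differed beyond sampling noise, with 27.9 per degree of freedom for poly(A) RNA and 1.87 for total RNA. The median count of the 32 genes was 6455.5 and 6375.5 in the poly(A) libraries, against 272 and 386.5 in the total RNA libraries. This statistic grows with depth, so the values do not show which fraction was more reproducible. BY4741 is of mating type a, and the a-cell receptor gene STE2 stood at 174 and 184 CPM (counts per 1000000 counts of the TMM-scaled library) in poly(A) RNA and 150.2 and 166 CPM in total RNA, whereas the alpha-cell receptor gene STE3 stayed under 1 CPM in every library. SAG1, the alpha-agglutinin gene, was the highest of the 4 alpha-cell markers, at 3.90 and 3.88 CPM in poly(A) RNA and 8.04 and 9.89 CPM in total RNA. HIS3, a marker that BY4741 lacks in part, was still read at 14.2 and 16.3 CPM in poly(A) RNA and 14.2 and 12.3 CPM in total RNA.

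As a set, nuclear pore transcripts took a smaller part of the coding counts in poly(A) RNA than in total RNA. They made up 0.394% and 0.407% of the nuclear coding counts in the poly(A) libraries, against 0.584% and 0.596% in the total RNA libraries. The means were 0.400% ± 0.00956 in poly(A) RNA and 0.590% ± 0.00812 in total RNA (SD, n = 2 each), a share 1.47-fold lower, with an exact two-sided permutation p of 0.333, the smallest that 2 against 2 libraries allow. These are shares of a library and give no amount of RNA per cell.

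Gene by gene, 23 of the 32 genes were lower in poly(A) RNA and 4 were higher relative to the typical feature (edgeR quasi-likelihood test, Benjamini-Hochberg adjusted p under 0.05 over 6945 features), although all 32 were higher when libraries were scaled to their totals, which are mostly rRNA in total RNA, and 20 were lower and 9 higher when they were scaled to the nuclear coding sum. In the same test 31.2% of all features were lower and 31.0% higher. The remaining 5 genes, NUP53, NUP42, NUP60, GLE1 and NUP82, did not pass. Under scaling to the nuclear coding sum these 5 were among the higher genes, where 3131 of 6945 features were higher. The median log2 fold change of the 32 genes was -0.70, against 0.044 over all features tested. Scaling to library totals moved the median of all features to 5.34 and scaling to the nuclear coding sum moved it to 0.37, but the distance of the pore genes' median from it stayed between -0.74 and -0.73 under these 3 scalings. Both poly(A) libraries lay below both total RNA libraries in 23 genes and above them in 7, where 38.3% and 42.8% of all features did. Only NUP53 and NUP60 overlapped. Values below are CPM after TMM scaling, which sets the typical feature equal between libraries, and all directions are relative to that feature.

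**Figure D1:**
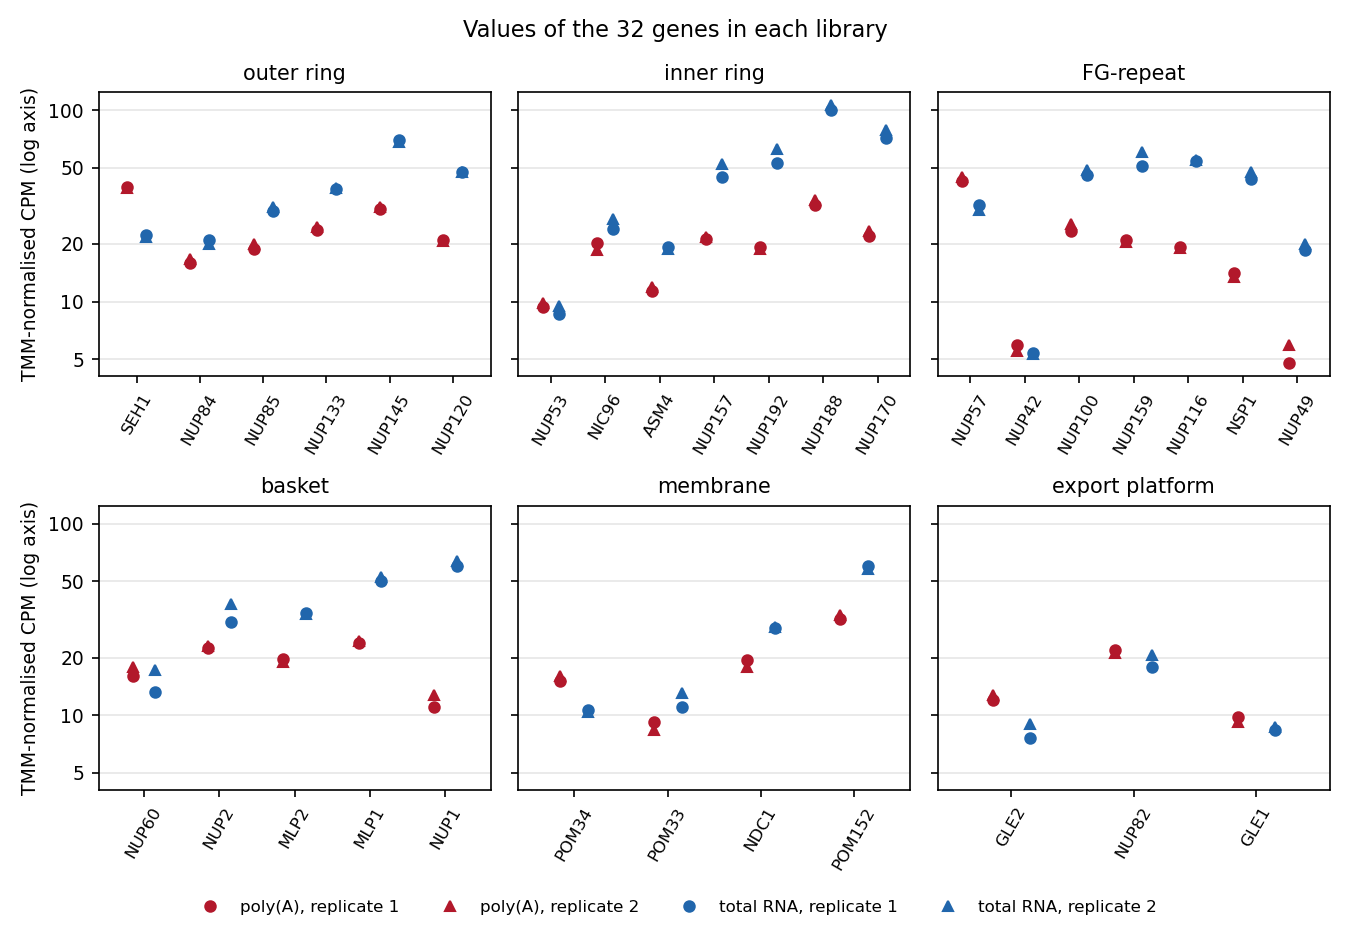
TMM-normalised CPM (log axis) of the 32 genes in each of the 4 libraries, in 6 panels by structural group, with red points for poly(A) RNA, blue points for total RNA, circles for replicate 1 and triangles for replicate 2. Relative to the typical feature (with library totals all 32 were higher), SEH1, NUP57, GLE2 and POM34 passed the test with their poly(A) points above their total RNA points, while NUP1, NUP49 and NSP1 lay furthest below, NUP1 at 11.1 and 12.8 CPM in poly(A) RNA against 60.5 and 63.9 CPM in total RNA.

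The outer ring scaffold is built of the Y-shaped Nup84 complex. Of its 6 genes here, 5 were lower in poly(A) RNA and 1, SEH1, was higher, where 31.2% of all features were lower and 31.0% higher. Coordinates are those of the genes in build R64. SEH1 (YGL100W, chromosome VII, 313234 to 314283) encodes a beta-propeller subunit that also serves in a vacuolar membrane complex of nutrient signalling. It stood at 39.9 and 39.4 CPM in the poly(A) libraries, against 22.4 and 21.6 CPM in the total RNA libraries, and its log2 fold change was 0.85 (SE 0.09, adjusted p = 8.31e-08), the highest of the 32 genes. Each poly(A) value exceeded each total RNA value, and replicates lay close together. NUP120 (YKL057C, chromosome XI, 330856 to 333969), which forms an arm of the Y, had 21.0 and 20.8 CPM in poly(A) RNA and 47.5 and 47.2 CPM in total RNA, and its log2 fold change was -1.18 (SE 0.09, adjusted p = 1.17e-10). NUP145 (YGL092W, chromosome VII, 337906 to 341859), whose scaffold part joins the arms of the Y, had 30.6 and 31.1 CPM in poly(A) RNA and 69.9 and 67.8 CPM in total RNA, and its log2 fold change was -1.16 (SE 0.08, adjusted p = 6.03e-11). In both the replicates of a fraction were closer to each other than to the other fraction. NUP133 (YKR082W), at the foot of the stalk, and NUP84 (YDL116W) and NUP85 (YJR042W), in the stalk and the second arm, were lower, with log2 fold changes of -0.69, -0.33 and -0.66 (SE 0.09, 0.10 and 0.10). Among those of the 32 genes that passed, NUP84 had the smallest change, and it did not pass without poly(A) replicate 1 (-0.26) or under scaling to the coding sum (-0.012). SEC13, the subunit of this complex that also forms COPII vesicle coats, is outside the set and was named after its values were seen. It was higher, its log2 fold change being 0.59 (SE 0.09, adjusted p = 7.53e-06), but not with the trend of fold change with gene length removed (0.19, adjusted p = 0.0816), a correction described with the gene lengths, under which SEH1 kept its call.

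In the inner ring, which lines the channel wall, 6 of 7 genes were lower and 1, NUP53, did not pass. Over all features 31.2% were lower. NUP170 (YBL079W, chromosome II, 75259 to 79767) had 22.0 and 23.2 CPM in the poly(A) libraries and 71.2 and 78.3 CPM in the total RNA libraries, and its log2 fold change was -1.73 (SE 0.09, adjusted p = 1.28e-13). NUP188 (YML103C, chromosome XIII, 62582 to 67549), a large adaptor of the ring, was the gene with the most counts in total RNA. It had 31.9 and 34.0 CPM in poly(A) RNA against 100.5 and 106 CPM in total RNA, and its log2 fold change was -1.65 (SE 0.08, adjusted p = 1.06e-13). NUP157 (YER105C, chromosome V, 367838 to 372013), the paralog of NUP170, had 21.1 and 21.8 CPM in poly(A) RNA and 44.6 and 52.5 CPM in total RNA, and its log2 fold change was -1.18 (SE 0.09, adjusted p = 3.60e-10). NUP192 (YJL039C), the other large adaptor, and NIC96 (YFR002W), which anchors the Nsp1 channel complex, were lower, with log2 fold changes of -1.61 and -0.40 (SE 0.09 and 0.10). NIC96 did not pass under scaling to the coding sum (-0.078). NUP192 and NSP1 are neighbours on chromosome X, read toward each other with 374 bases and no annotated gene between them, and both were lower. NUP157 lies 1434 bases from GLE2 of the export platform on chromosome V, with 1 gene between them, and they had opposite directions. NUP53 and ASM4 encode paralogous linker proteins that contact the membrane. ASM4 (YDL088C, chromosome IV, 298417 to 300003) was lower at 11.3 and 11.9 CPM in poly(A) RNA against 19.3 and 18.8 CPM in total RNA, and its log2 fold change was -0.71 (SE 0.10, adjusted p = 4.42e-06). NUP53 (YMR153W, chromosome XIII, 564435 to 565862) had 9.36 and 9.78 CPM in poly(A) RNA and 8.61 and 9.46 CPM in total RNA, ranges that overlap, and its log2 fold change was 0.075 (SE 0.13, adjusted p = 0.626). A further 1104 and 1140 poly(A) counts and 23 and 47 total RNA counts lay on a feature that joins NUP53 with the overlapping YMR153C-A.

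Of the 7 FG-repeat genes, 5 were lower, 1 was higher and 1 did not pass, from -1.86 for NUP49 to 0.50 for NUP57. Over all features 31.2% were lower and 31.0% higher. NUP49 (YGL172W, chromosome VII, 180700 to 182118), a channel nucleoporin, had 4.75 and 5.90 CPM in the poly(A) libraries, against 18.6 and 19.9 CPM in the total RNA libraries, and its log2 fold change was -1.86 (SE 0.13, adjusted p = 2.95e-11). NSP1 (YJL041W, chromosome X, 365784 to 368373), the FG-repeat protein shared by the channel and the cytoplasmic complex, had 14.1 and 13.4 CPM in poly(A) RNA and 43.9 and 47.3 CPM in total RNA, and its log2 fold change was -1.74 (SE 0.09, adjusted p = 3.88e-13). It is the only gene of the 32 with an intron, of 118 bases behind the first coding base (365785 to 365902). NUP57 (YGR119C, chromosome VII, 728046 to 729671), the remaining member of the channel subcomplex, was named after its values were seen. It went the other way, at 42.6 and 44.8 CPM in poly(A) RNA against 31.8 and 30.1 CPM in total RNA, and its log2 fold change was 0.50 (SE 0.09, adjusted p = 5.61e-05). The 3 proteins assemble with each other. As raw counts, NUP57 had 14090 and 15103 in the poly(A) libraries and 277 and 356 in the total RNA libraries, and NSP1 had 4643 and 4508 in the poly(A) libraries and 382 and 560 in the total RNA libraries. NUP57 thus exceeded NSP1 in counts in both poly(A) libraries and lay below it in both total RNA libraries, an order that no scaling of libraries changes. Per kilobase of coding sequence the crossing did not hold, since the total RNA ranges of NUP57 and NSP1 overlapped.

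NUP116 (YMR047C, chromosome XIII, 363364 to 366705), a GLFG nucleoporin that binds Gle2, had 19.3 and 19.0 CPM in poly(A) RNA and 54.3 and 55.0 CPM in total RNA, and its log2 fold change was -1.51 (SE 0.09, adjusted p = 1.37e-12). Its paralog NUP100 (YKL068W, chromosome XI, 310199 to 313078) had 23.3 and 25.4 CPM in poly(A) RNA and 45.8 and 48.6 CPM in total RNA, and its log2 fold change was -0.96 (SE 0.09, adjusted p = 5.76e-09). NUP159 (YIL115C), the cytoplasmic docking site of the helicase Dbp5, was lower at a log2 fold change of -1.43 (SE 0.09). NUP42 (YDR192C), which binds Gle1 on the cytoplasmic face, had the fewest counts in total RNA, 47 and 63, and did not pass, with a log2 fold change of 0.10 (SE 0.15) that turned to -0.049 when the reads shared with the overlapping YDR193W were added. By repeat type, the 4 genes of this group with GLFG repeats, NUP49, NUP57, NUP100 and NUP116 (8, 9, 11 and 20 codon runs for glycine-leucine-phenylalanine-glycine), spanned the whole range of the group. The genes rich in codon runs for phenylalanine, any residue, phenylalanine and glycine, NSP1 (19), NUP1 (13) and NUP2 (11), were lower. Over all features 31.2% were lower. In the edgeR test with the trend of fold change with gene length removed, NSP1 and NUP1 stayed lower. There NUP2 did not pass (-0.19, adjusted p = 0.119).

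Of the 5 basket genes, 4 were lower and 1, NUP60, did not pass, where 31.2% of all features were lower. NUP1 (YOR098C, chromosome XV, 507948 to 511178), an FG-repeat protein on the nuclear face that binds import receptors, had 11.1 and 12.8 CPM in the poly(A) libraries, against 60.5 and 63.9 CPM in the total RNA libraries. Its log2 fold change of -2.38 (SE 0.10, adjusted p = 2.69e-15) was the lowest of the 32 genes. MLP1 (YKR095W, chromosome XI, 619805 to 625432) and MLP2 encode the long coiled-coil filaments of the basket, and MLP1 is known for retaining unspliced mRNA. MLP1 had 23.8 and 24.3 CPM in poly(A) RNA and 50.0 and 53.0 CPM in total RNA, and its log2 fold change was -1.10 (SE 0.09, adjusted p = 3.36e-10). MLP2 (YIL149C, chromosome IX, 63028 to 68067) had 19.7 and 18.9 CPM in poly(A) RNA and 34.0 and 34.0 CPM in total RNA, and its log2 fold change was -0.82 (SE 0.09, adjusted p = 1.10e-07). NUP2 (YLR335W), which cycles on and off the basket and helps to recycle importin alpha, had a log2 fold change of -0.60 (SE 0.10). NUP60 (YAR002W), which tethers Nup2 and the Mlp proteins, had 0.14 (SE 0.12) and did not pass. NUP60 rested on single libraries, with -0.014 without total RNA replicate 1 and 0.37 and a call without total RNA replicate 2.

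Among the membrane proteins, 3 genes were lower and 1 was higher, where 31.2% of all features were lower and 31.0% higher. POM152 (YMR129W, chromosome XIII, 527804 to 531817), a glycoprotein that rings the pore membrane, had 31.8 and 33.5 CPM in poly(A) RNA and 59.8 and 58.0 CPM in total RNA, and its log2 fold change was -0.85 (SE 0.08, adjusted p = 1.41e-08). NDC1 (YML031W, chromosome XIII, 214189 to 216156), which also inserts spindle pole bodies into the envelope, had 19.3 and 18.0 CPM in poly(A) RNA and 28.7 and 29.0 CPM in total RNA, and its log2 fold change was -0.63 (SE 0.10, adjusted p = 7.60e-06). POM33 (YLL023C, chromosome XII, 97997 to 98836), which takes part in pore distribution, had 9.19 and 8.35 CPM in poly(A) RNA and 11.0 and 13.0 CPM in total RNA, and its log2 fold change was -0.47 (SE 0.12, adjusted p = 0.00251). POM33 lost its call without total RNA replicate 2 (-0.32) and under scaling to the coding sum (-0.14). POM34 (YLR018C, chromosome XII, 178707 to 179606), a partner of Pom152, was higher at 15.1 and 16.0 CPM in poly(A) RNA against 10.7 and 10.4 CPM in total RNA, and its log2 fold change was 0.57 (SE 0.12, adjusted p = 0.00023).

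Of the 3 genes of the export platform, GLE2 was higher and 2 did not pass, where 31.0% of all features were higher. GLE2 (YER107C, chromosome V, 373448 to 374545), a beta-propeller bound to Nup116, had 12.0 and 12.7 CPM in the poly(A) libraries and 7.58 and 9.04 CPM in the total RNA libraries, and its log2 fold change was 0.56 (SE 0.13, adjusted p = 0.000728). NUP82 (YJL061W, chromosome X, 320016 to 322157), which holds Nup159 and Nsp1 on the cytoplasmic face, had 22.0 and 21.1 CPM in poly(A) RNA and 17.8 and 20.6 CPM in total RNA, and its log2 fold change was 0.16 (SE 0.10, adjusted p = 0.204). GLE1 (YDL207W), the activator of Dbp5, had a log2 fold change of 0.15 (SE 0.13). Neither NUP82 nor GLE1 passed the test, though their poly(A) values lay above their total RNA values. Both were called higher under scaling to the nuclear coding sum.

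**Figure D2:**
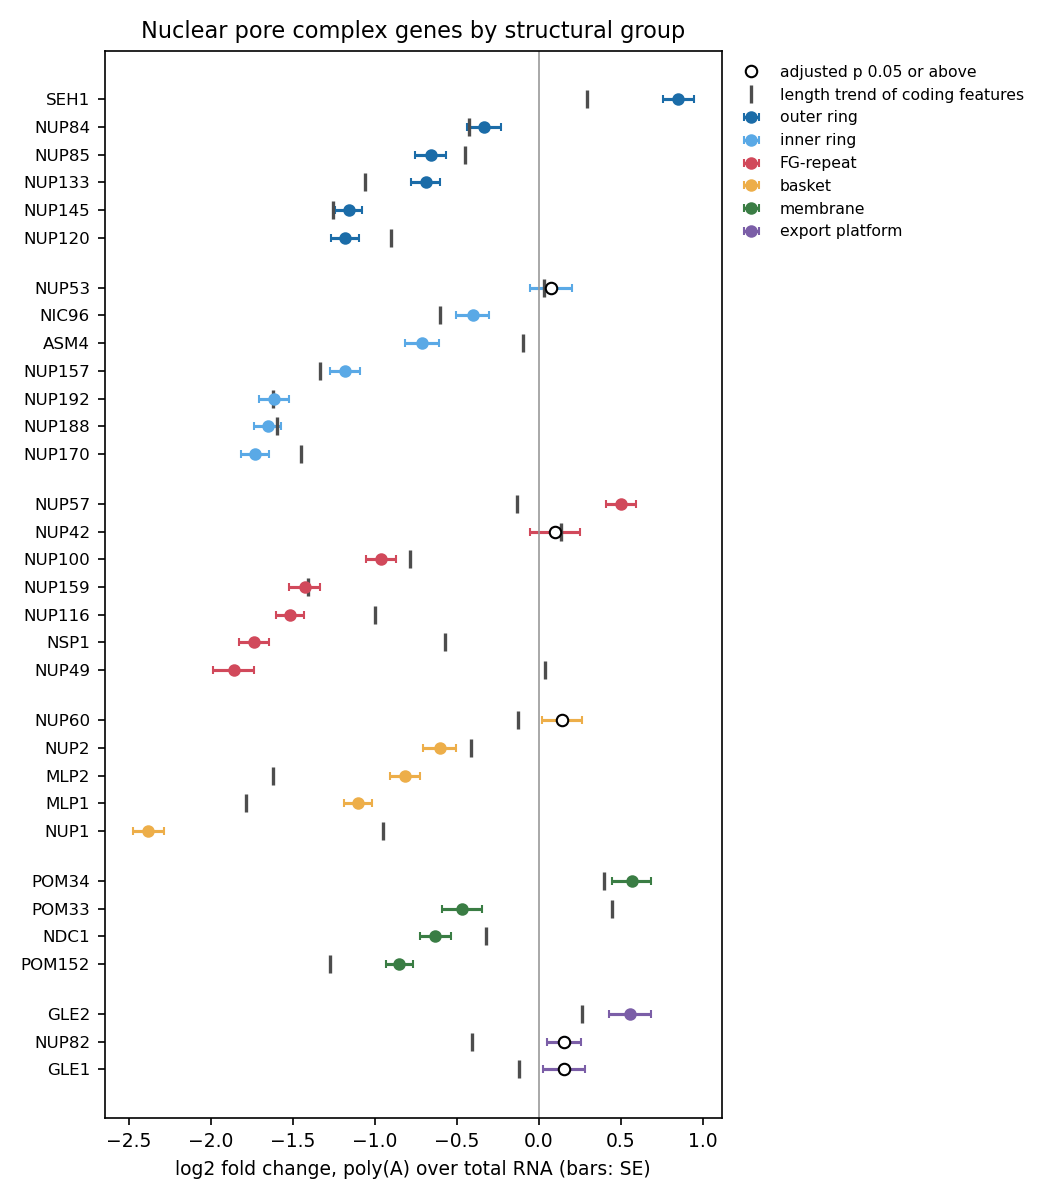
Log2 fold change of poly(A) over total RNA (x axis, bars are SE) for each gene in its group, with open circles for genes at an adjusted p of 0.05 or above and a grey tick at the value that the length trend of all coding features gives for that gene. SEH1 stood highest at 0.85 and NUP1 lowest at -2.38, relative to the typical feature; with library totals all 32 values were above 0.

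Within the pore, the counts were divided differently between the groups in the 2 fractions. Such shares do not depend on the scaling between libraries. The inner ring held 21.5% ± 0.0281 of the counts of the 32 genes in poly(A) RNA and 28.9% ± 0.823 in total RNA (SD, n = 2 each). The outer ring held 23.8% ± 0.0232 in poly(A) RNA and 19.6% ± 0.973 in total RNA, so that by raw counts the outer ring held the most in poly(A) RNA and the inner ring in total RNA. With counts divided by coding length, the FG-repeat group held the most in total RNA, at 24.4% and 24.1%, against 21.9% and 20.5% for the outer ring and 21.1% and 21.8% for the inner ring there. That division is the same in every library, so it does not remove the trend of fold change with gene length. By median log2 fold change, the inner ring lay -0.48 from the median of the 32 genes, and -0.016 with that trend removed. The export platform held 6.84% ± 0.175 in poly(A) RNA and 3.08% ± 0.149 in total RNA. The membrane proteins held 11.9% ± 0.129 in poly(A) RNA and 9.45% ± 0.390 in total RNA. The FG-repeat group held 20.9% ± 0.0639 in poly(A) RNA and 22.1% ± 0.0303 in total RNA, and the basket held 15.0% ± 0.236 in poly(A) RNA and 16.9% ± 0.362 in total RNA. The difference of the FG-repeat group, -1.22 percentage points, became -3.18 with counts divided by coding length and -2.63 with NUP1, NUP2 and NUP60 counted in it. That of the basket, -1.89 points, became -2.93 and -0.48 under the same changes. The poly(A) and total RNA libraries did not overlap in any of the 6 groups. They were also apart in most single features, with poly(A) below total RNA in 38.3% and above it in 42.8%. Each group share had an exact two-sided permutation p of 0.333, the smallest the design allows, and of 0.333 after Benjamini-Hochberg adjustment.

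**Figure D3:**
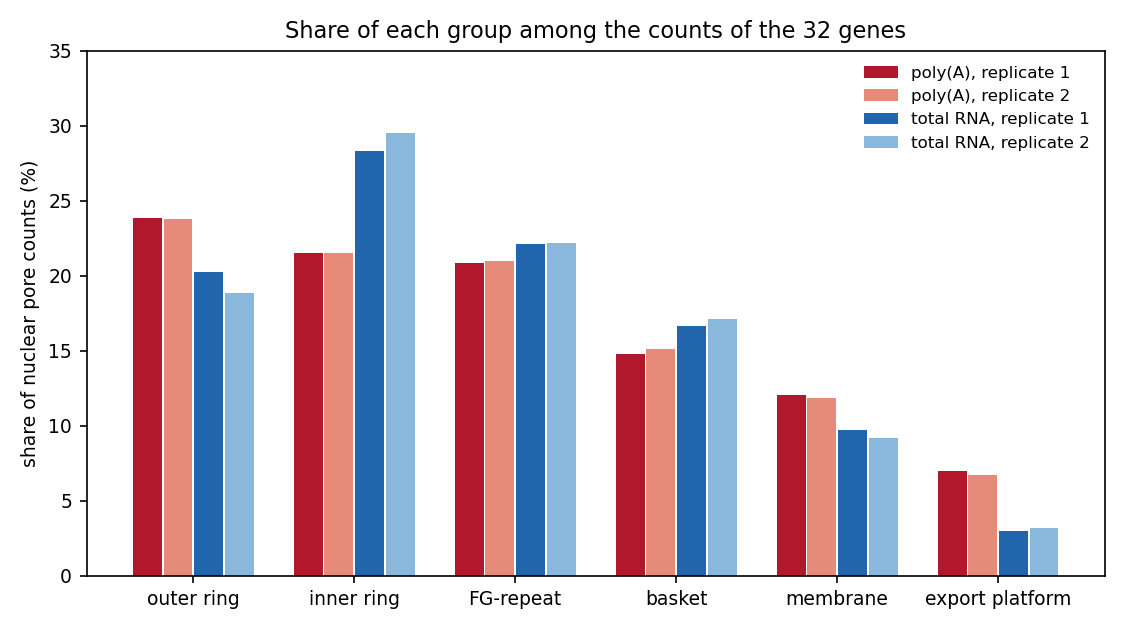
Share (%) of each structural group among the counts of the 32 nuclear pore genes in poly(A) replicates 1 and 2 (red) and total RNA replicates 1 and 2 (blue), with bars from 0. The inner ring held 21.5% on average in poly(A) RNA against 28.9% in total RNA, and the export platform 6.84% in poly(A) RNA against 3.08% in total RNA.

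By the group medians of the log2 fold change, the FG-repeat genes stood lowest (-1.43), followed by the inner ring (-1.18), the basket (-0.82), the outer ring (-0.67), the membrane proteins (-0.55) and the export platform (0.16). Relative to the median of the 32 genes these were distances of -0.73, -0.48, -0.12, 0.026, 0.15 and 0.86. The replicate spread of these distances was between 0.035 and 0.13, and every group except the outer ring lay further from the median than its own spread with all libraries. Without poly(A) replicate 2 the basket, at -0.054, lay within its spread of 0.068, and without total RNA replicate 2 the outer ring, at 0.057, lay just outside its spread of 0.050. The spread does not bound the distances. Leaving out single libraries moved the FG-repeat group between -0.81 and -0.58 (spread 0.035) and the membrane group between 0.070 and 0.24 (spread 0.050). The inner ring and the export platform also moved by more than their spreads, while the outer ring and the basket moved by less. Of the 10 genes with at least 10 phenylalanine-glycine codon pairs, 8 were lower and 1 was higher, where 31.2% of all features were lower and 31.0% higher. With the trend of fold change with gene length removed, 4 of these genes were lower, 1 was higher and 5 did not pass. In that test 26.2% of coding features were lower and 26.1% higher. The group medians describe groups of 3 to 7 genes, and no test was made between them.

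The groups also differed in gene length, and fold change fell with length across the whole table. The median coding length was 2354 bases in the 32 genes and 1203 bases in 5772 tested coding features, of which 15.5% exceeded the pore genes' median. Across genes measured in the same libraries, Pearson's r between log2 fold change and log2 coding length was -0.70 over the 32 pore genes and -0.51 over the 5772 features. All 13 pore genes of 3000 bases or more were lower, as were 95.8% of the 477 coding features of that length. Of the 19 shorter ones, 10 were lower, 4 were higher and 5 did not pass, where 26.0% of the shorter coding features were lower. The shorter pore genes and shorter coding features were not matched for length, and 28 of the 32 genes exceeded the 1203 bases. The limit of 3000 bases was chosen after the values were seen. The inner ring genes had a median length of 4176 bases, the basket 3231, the outer ring 2675, the FG-repeat group 2472, the export platform 1617 and the membrane group 1434.

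With the length trend of all coding features taken out of the same edgeR test, 9 of the 32 genes were lower, 7 were higher and 16 did not pass, and the median of the pore genes was 0.025, equal to that of all 5772 features (0.025). In that test 26.2% of the features were lower and 26.1% higher. By group, the outer ring had 1 gene lower and 2 higher, the inner ring 2 and 0, and the FG-repeat group 3 and 1. The basket had 1 lower and 2 higher, the membrane group 2 and 1, and the export platform 0 and 1. Of the 23 genes that had been lower, 9 stayed lower, 10 did not pass and 4 were higher. NUP49 lay furthest under the trend, at -1.90 (SE 0.13, adjusted p = 1.34e-09), followed by NUP1 at -1.43 (SE 0.09, adjusted p = 6.92e-10) and NSP1 at -1.16 (SE 0.09, adjusted p = 6.76e-09). POM33, which is short, was at -0.91, and its paralog PER33, which is not in the set, at -0.56. ASM4 (-0.61), NUP116 (-0.51), NDC1 (-0.31), NUP120 (-0.28) and NUP170 (-0.28) were the others that stayed lower. NUP188, NUP192 and NUP159, 3 of the longest genes, lay on the trend at -0.057, 0.009 and -0.021.

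The basket filaments turned round in this test. MLP2 and MLP1, among the longest of the 32 genes at 5040 and 5628 coding bases, lay above the trend at 0.80 (SE 0.09, adjusted p = 7.48e-07) and 0.69 (SE 0.08, adjusted p = 2.16e-06), although both were lower without the correction. POM152 and NUP133 did likewise, at 0.42 and 0.37. SEH1 (0.56) and NUP57 (0.63) stayed higher, NUP82 passed at 0.56, and GLE2 (0.29) and POM34 (0.17) no longer passed. The group distances from the pore median then lay between -0.20 for the FG-repeat genes and 0.27 for the export platform, and the basket moved to 0.24. Over the 32 genes, Pearson's r between the number of phenylalanine-glycine pairs per 100 codons and the log2 fold change was -0.17, and -0.42 for the distance from the length trend, with r computed across genes of the same libraries.

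**Figure D4:**
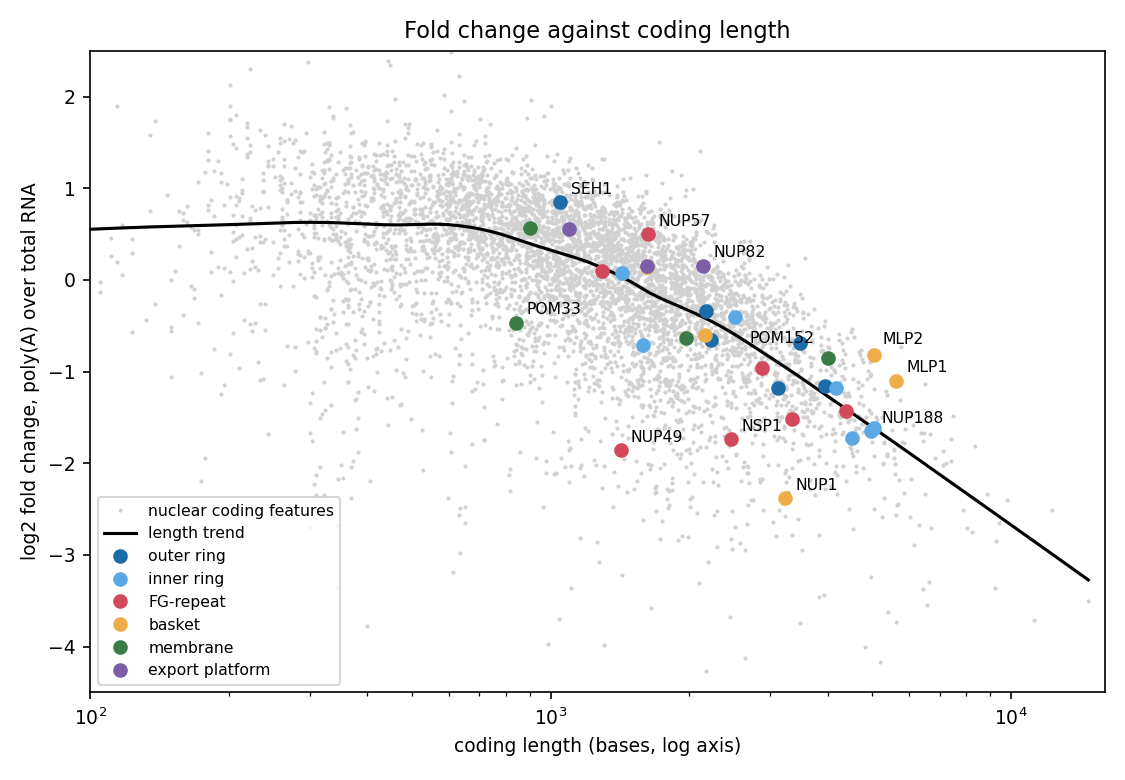
Log2 fold change of poly(A) over total RNA against coding length (log axis) for nuclear coding features (grey), the 32 nuclear pore genes (coloured by group) and the length trend of all 5772 features (line), with 57 features outside the axes. NUP49, NUP1 and NSP1 lay furthest below the line and MLP2 and MLP1 above it; relative to the typical feature both MLP genes were lower, and with library totals all 32 genes were higher.

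Levels of different genes were compared per length, as CPM of the nuclear coding sum per kilobase of coding sequence. In poly(A) RNA they spanned 10.2-fold, with SEH1 highest at 238 ± 0.184 (SD, n = 2), then NUP57 at 169.7 ± 7.59 and POM34 at 109 ± 5.27, each apart from the next in both replicates. NUP1 (23.4 ± 2.61), NUP192 (23.7 ± 0.209), NUP49 (23.7 ± 3.83) and MLP2 (24.2 ± 0.527) were the lowest and did not differ beyond their replicate ranges. In total RNA the span was 5.06-fold. SEH1 (106 ± 5.58) and NUP188 (105 ± 1.27) were highest with overlapping ranges, followed by NUP1 (97.3 ± 0.971), NUP57 (96.3 ± 6.52) and NSP1 (93.2 ± 2.36), and NUP42 was lowest (21.0 ± 0.796). With the joined reads counted, an alternative chosen after seeing the data, NUP42 stood at 28.9 ± 1.31 (SD, n = 2), GLE1 was lowest at 26.7 ± 0.0463 and the span was 3.97-fold. NUP1 thus had rank 3 of 32 by its mean in total RNA and rank 32 in poly(A) RNA, though its range overlapped that of NUP57 in total RNA and those of NUP192, NUP49 and MLP2 in poly(A) RNA. Of 31 neighbouring pairs in the order of levels, 17 overlapped in poly(A) RNA and 23 in total RNA, so most ranks in the middle were not resolved. The orders in the 2 fractions had a Spearman's rho of 0.16 over the 32 genes, as a description. The median level of the pore genes was 45.1 in poly(A) RNA and 66.2 in total RNA, where 5866 coding features with a length had medians of 43.0 in poly(A) RNA and 36.5 in total RNA.

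**Figure D5:**
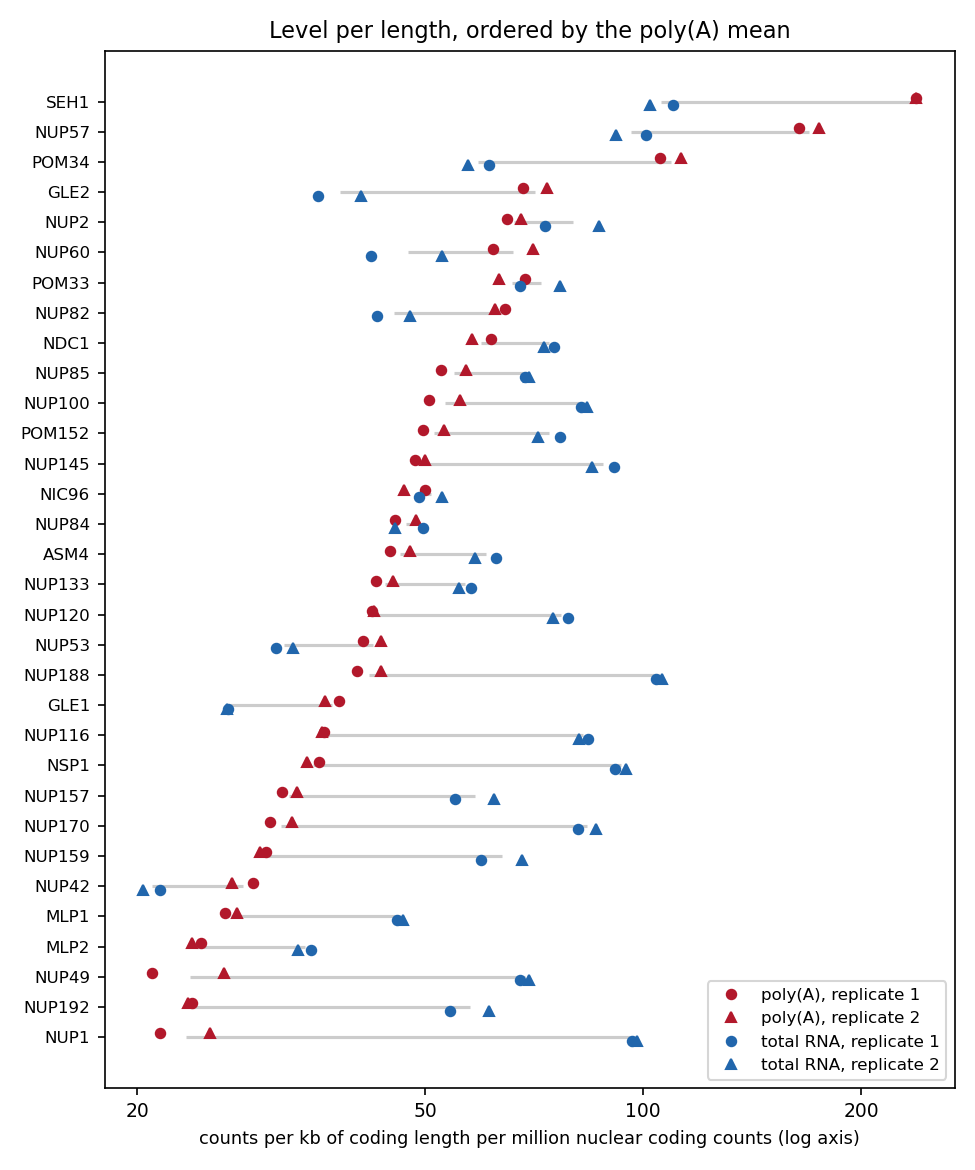
Level per length (CPM of the nuclear coding sum per kilobase of coding sequence, log axis) of each gene in poly(A) RNA (red) and total RNA (blue), circles for replicate 1 and triangles for replicate 2, ordered by the poly(A) mean, with grey lines joining the means. SEH1 was highest by its mean in both fractions, at 238 ± 0.184 in poly(A) RNA and 106 ± 5.58 in total RNA (SD, n = 2), and NUP1 was lowest in poly(A) RNA at 23.4 ± 2.61 but at rank 3 in total RNA at 97.3 ± 0.971.

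Paralogs were compared by the log2 ratio of their counts within a library, which does not depend on the scaling. NUP53 over ASM4 stood at -0.28 and -0.28 in the poly(A) libraries, against -1.16 and -0.99 in the total RNA libraries, a difference of 0.80. NUP157 over NUP170 stood at -0.057 and -0.089 in poly(A) RNA, against -0.68 and -0.58 in total RNA, a difference of 0.55. NUP100 over NUP116 was 0.27 and 0.42 in poly(A) RNA and -0.25 and -0.18 in total RNA, so NUP100 had more counts than NUP116 in poly(A) RNA and fewer in total RNA. MLP1 over MLP2 was 0.27 and 0.37 in poly(A) RNA and 0.56 and 0.64 in total RNA, a difference of -0.28. In these 4 pairs the fractions did not overlap, and in each of them the ratio moved toward the shorter paralog in poly(A) RNA. The fractions were also apart in most single features, with poly(A) below total RNA in 38.3% and above it in 42.8%. No such share was computed for ratios. With the length trend removed, the log2 fold changes were 0.042 for NUP53 and -0.61 for ASM4, and 0.15 for NUP157 and -0.28 for NUP170. They were -0.17 for NUP100 and -0.51 for NUP116, and 0.69 for MLP1 and 0.80 for MLP2. The cause of the shifts was not tested. POM33 over PER33 was -0.41 and -0.58 in poly(A) RNA and -0.43 and 0.12 in total RNA, ranges that overlap. Exact two-sided permutation tests gave p = 0.333 for the first 4 pairs and 0.667 for POM33 over PER33, or 0.417 and 0.667 after adjustment over the 5 pairs.

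The transport machinery that uses the pore was read from the same test, again relative to the typical feature. All 15 karyopherins, the receptors and adaptors of cargo transport through the pore, were lower by that measure. With the coding sum 13 of them were lower, and with library totals 0. The median of their log2 fold changes was -0.91. The importin beta gene KAP95 had -2.19 (SE 0.09), KAP123, an importer of ribosomal proteins, -2.05 (SE 0.08), and MSN5, an exporter of phosphorylated proteins, -1.79 (SE 0.09). With the length trend removed, 6 karyopherins were lower, 3 higher and 6 did not pass, where 26.2% of coding features were lower and 26.1% higher. KAP95 still stood at -1.56. Of 9 genes of the Ran cycle, which gives transport its direction, 5 were higher and 1 was lower, with a median of 0.37, in a test where 31.0% of all features were higher and 31.2% lower. MOG1 and the Ran-binding protein YRB1 had 1.23 and 1.08 (SE 0.15 and 0.10), and YRB30 had -0.84 (SE 0.18).

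Of 13 mRNA export genes, 7 were higher and 3 were lower in the same test, with a median of 0.51. SEM1 and SUS1, small subunits of the TREX-2 complex at the basket, had 1.53 and 1.41 (SE 0.12 and 0.43), although SUS1 had only 4 and 5 counts in total RNA and did not pass with the length trend removed (0.78, adjusted p = 0.173), and GFD1, a cofactor of Dbp5, had 1.41 (SE 0.17). Of 14 genes whose products assemble or associate with pores, 5 were higher, 3 were lower and 6 did not pass, with a median of 0.067, where 31.0% of all features were higher and 31.2% lower. The dynein light chain DYN2, which also sits in the Nup82 complex, had 1.22 (SE 0.17), the membrane-shaping reticulon RTN1 -0.95 (SE 0.07), and ESC1, a nuclear envelope protein of silencing, -1.46 (SE 0.10). With the length trend removed ESC1 had 0.14 and did not pass (adjusted p = 0.235), whereas RTN1 stayed lower at -1.36. Under that correction the Ran cycle had 2 genes higher and 3 lower, mRNA export 7 and 2, and the associated genes 3 and 4. In that test 26.1% of coding features were higher and 26.2% lower.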

How the data were processed

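The authors deposited raw read counts of each feature in 4 library columns, per the file headers. The submitters' processing notes name, with no role, genome build R64, Bowtie2 2.3.4.3, FastQC 0.11.8 and cutadapt 1.18. The labels and headers name no counting program, no strand setting and no rule for reads with several matches. RNA came from 10 mL of culture by hot phenol, and 50 ng per library were fragmented, primed with random hexamers, amplified in 14 cycles and read single-end over 50 bases, per the labels. Reads in overlaps of annotated genes were deposited as 622 joined features, and 5 of these held a member (NUP53, NDC1, NUP159, GLE2 and NUP42). They were left out of the members' counts unless said otherwise, and they held 5.7% to 26.3% of the sum of both in poly(A) RNA and 1.9% to 31.5% in total RNA. The table also had 5 empty lines.

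Systematic names, coordinates and coding lengths came from the RefSeq reference of build R64, which matched all 32 members. Differences were tested on the whole table with edgeR 4.0.16 in R 4.3.3 (filterByExpr, TMM, quasi-likelihood F test, Benjamini-Hochberg adjustment at 0.05). The procedure was tested on simulated counts of coding features only. These held no rRNA, so the scaling of libraries that are mostly rRNA was not tested. TMM factors were 6.25 and 6.34 for the poly(A) libraries and 0.162 and 0.156 for the total RNA libraries. SE is the size of the log2 fold change over the root of F. The length trend was a lowess curve (span 0.3) of log2 fold change on log2 coding length over 5772 coding features, entered as an offset. Nothing in the labels ties replicate 1 of poly(A) RNA to replicate 1 of total RNA, so the test had no replicate block. DESeq2 1.42.0 was an alternative. Python 3.11.15 was used for shares and ratios. Counts are not unique molecules. Each SD rests on 2 libraries, and the SE of the edgeR test also draws on the spread of the other features. Values in every library are given for the 3 highest and 3 lowest genes, the 2 of each group furthest from 0 and the paralogs, and the 3 genes furthest from 0 are named in each transport list. Library scaling, count filters, joined features, leaving out each library, a replicate block and the length trend were varied. The members, groups, lists and tests were chosen with earlier results of these data known.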

Additional observations from a re-analysis of the deposited data

How the results depend on the processing

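The count of 23 lower and 4 higher genes did not change by over 1.5 times under DESeq2, other size factors, the count filters, the added joined features, or the loss of any library (22 to 23 lower, 4 to 5 higher). Scaling to library totals gave 32 higher and 0 lower and turned round every lower gene: NUP84 to 4.98, NUP85 4.65, NUP120 4.13, NUP133 4.62, NUP145 4.15, NIC96 4.91, NUP157 4.13, NUP170 3.58, NUP188 3.66, NUP192 3.70, ASM4 4.60, NSP1 3.57, NUP49 3.45, NUP100 4.35, NUP116 3.80, NUP159 3.88, NDC1 4.68, POM152 4.46, POM33 4.84, NUP1 2.93, NUP2 4.71, MLP1 4.21 and MLP2 4.49. Scaling to the coding sum gave 9 higher and 20 lower, and 8 associated genes higher. Library totals, added for the transport lists after seeing the data, also left 0 genes of them lower, with 15 karyopherins, 9 Ran cycle, 13 mRNA export and 14 associated genes higher. By construction these scalings add a constant to every log2 value.

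With the length trend removed, 7 were higher and 9 lower, and NUP84 (0.090), NUP133 (0.37), NUP145 (0.093), NIC96 (0.20), NUP157 (0.15), NUP192 (0.0090), NUP42 (-0.034), POM152 (0.42), MLP1 (0.69) and MLP2 (0.80) changed sign. That correction moved the group distances from the pore median to -0.016 (inner ring), -0.20 (FG-repeat), 0.27 (export platform), -0.095 (membrane) and 0.24 (basket). It left 3 karyopherins higher and 6 lower, 2 Ran cycle genes higher and 3 lower, and 3 associated genes higher. Of all coding features in that test, 26.1% were higher and 26.2% lower. Without poly(A) replicate 1 the associated genes had 3 higher. NUP42 was -0.049 with joined features and NUP60 -0.014 without total RNA replicate 1.

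Leaving out single libraries gave distances of 0.020 to 0.057 for the outer ring, -0.17 to -0.054 for the basket and -0.57 to -0.34 for the inner ring. The distances were -0.81 to -0.58 for the FG-repeat group, 0.80 to 0.98 for the export platform and 0.070 to 0.24 for the membrane group. Joined features gave the FG-repeat group -0.67, and moving NUP1, NUP2 and NUP60 into it gave -0.49, with -0.26 for the basket. The cause of these moves was not tested. Shares and paralog ratios kept their direction without any 1 library.

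Same-numbered libraries deviated together with r = 0.26 over 4174 genes, from 2 pairs only, and nothing in the labels links them. With the replicate number as a block, 4 genes were higher and 23 lower, and no member's call changed. The lowest count of a member was 1570 in poly(A) RNA and 47 in total RNA.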
